A study of Arabidopsis thaliana with 66 samples.

Results

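Sepals are the outermost organs of the flower. They were compared at stage 12, the last stage before the Arabidopsis thaliana bud opens, and at stage 15, when the flower is open. The comparison used 6 of the 66 arrays of the study: 3 arrays labelled as sepals of stage 12 flowers and 3 labelled as sepals of stage 15 flowers. All 6 came from wild-type Col-0 plants grown on soil in continuous light at 23 °C and 65% relative humidity, and no transgene or agent is named. Petals, stamens and carpels of the same 2 stages and growth conditions, with 3 arrays in each group, served to test whether a change in sepals differed from that in another organ. RNA was hybridised to one-colour ATH1 arrays. The labels do not say how many flowers went into a sample or whether the 3 arrays of a group came from separate plants. The p-values therefore measure only the spread between arrays of a group, estimated jointly over all 66 arrays of the study.

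The sepal encloses and protects the bud. It is a leaf-like organ with chloroplasts, stomata and an epidermis of very unequal cell sizes, and it stops growing as the flower opens. After pollination it ages, withers and falls. In ageing leaves chlorophyll and the photosynthetic proteins are broken down, autophagy carries cell content to the vacuole, and nitrogen and sugars are exported to growing organs. WRKY and NAC transcription factors take part in that programme. Genes of these processes, of cell wall loosening and of hormones were followed in sepals. Earlier results of these data were known when they were chosen.

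Replicate sepal arrays correlated at 0.989 to 0.992 across probe sets, whereas arrays of different stages correlated at 0.876 to 0.878. Between 13224 and 13344 probe sets lay above the floor at stage 12, and between 12645 and 12794 at stage 15. The floor is a signal of 22.6, the 40th percentile of all values on the 66 arrays. Where no array of a group exceeds it the group is called below the floor, and folds are then lower bounds. Changes are stage 15 minus stage 12 on the log2(signal + 11.3) scale, where dim genes appear to change less than they did. A probe set was called at a limma adjusted p below 0.05 and a change of at least 2-fold. Throughout, ± is the SD over 3 arrays.

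Markers of pollen, tapetum, carpels and petals were far lower in the sepal samples than in their own tissues, and for nectary markers the gap to whole flowers was smaller. Of the sepal identity genes listed for a check of the label, none has a probe set that pairs with 1 gene, so the identity of the organ was not checked directly. The summed signal of 4 tapetum genes was at most 31.3 in any sepal array, with 0 of 4 above the floor, against at least 975 in stage 12 flowers. The 5 carpel and ovule genes summed to between 131 and 151 at stage 12 and between 58.3 and 79.6 at stage 15, against at least 3497 in carpels. The 8 pollen genes summed to between 351 and 390 at stage 12 and between 479 and 517 at stage 15, against at least 6592 in stamens. In sepals, MGH3 and ANX1, a sperm cell histone gene and a pollen tube receptor gene, were below the floor at both stages. For the 2 petal genes the sums were 115 to 148 at stage 12 and 121 to 186 at stage 15, against at least 934 in petals. The 2 nectary genes, SWEET9 and JMT, summed to between 69.0 and 74.3 at stage 12 and between 242 and 270.3 at stage 15, and both were called. In whole flowers the sums were 172 to 192 at stage 12 and 1013 to 1077 at stage 15.

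Between stage 12 and stage 15, 1225 of 17646 tested probe sets rose in sepals (6.94%) and 1748 fell (9.91%). In all of them the 3 arrays of one stage lay apart from the 3 of the other, which was also true of 64.7% of all tested probe sets and 57.5% of those not called. The median change of called probe sets was 2.70-fold among those that rose and 2.73-fold among those that fell. A change of 4-fold or more was seen in 247 increases and 349 decreases, and of 8-fold or more in 45 and 59. The median over all probe sets tested was -0.03 on the log2 scale. Among the genes with a named probe set, 588 rose and 888 fell. The samples are bulk tissue, so fewer cells of a type and less RNA per cell cannot be told apart.

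**Figure D1:**
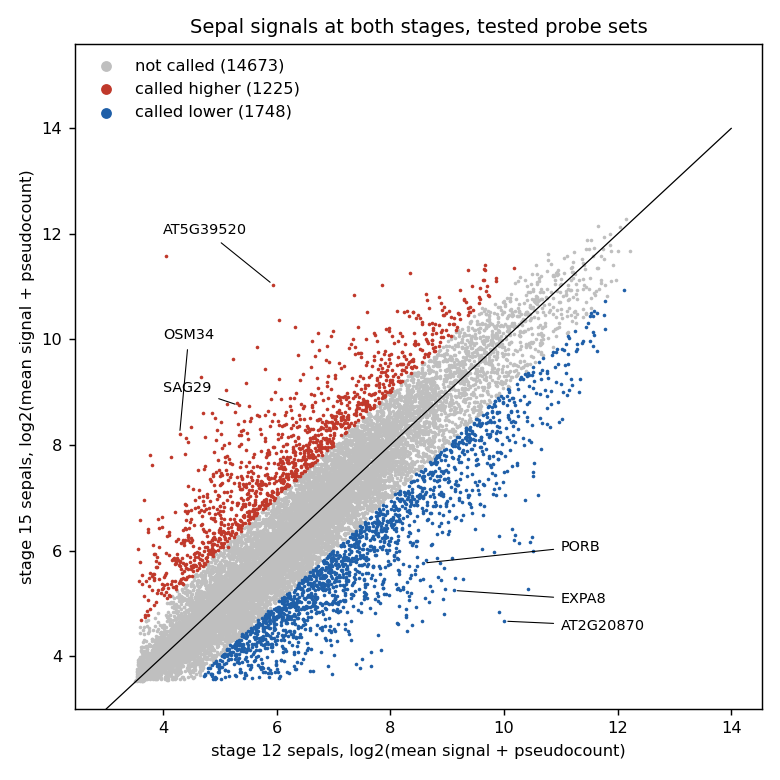
Mean signal of each tested probe set in stage 12 sepals (x axis) and stage 15 sepals (y axis), both as log2(mean signal + 11.3), with 1 point per probe set and the line of equal signal. The 1225 probe sets called higher lie above the line and the 1748 called lower lie below it.

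The largest increase of a named gene was that of AT5G39520. Its signals were 53.1, 49.8 and 46.4 on the stage 12 arrays and 1847, 2022 and 2416 on the stage 15 arrays. The groups were far apart, with a log2 change of 5.10 (SE 0.16, adjusted p = 3.21e-34). OSM34 (AT4G11650), which encodes the osmotic stress and defence protein osmotin, was below the floor at stage 12, at 4.15, 13.3 and 7.36. At stage 15 it reached 309, 278 and 267, at least 12.6-fold higher (log2 change 3.94, adjusted p = 1.03e-27). SAG29 (AT5G13170), also named SWEET15, encodes a sucrose exporter that accumulates in ageing leaves. It rose from 23.6, 31.1 and 31.8 to 426, 430.0 and 403 (log2 change 3.43, SE 0.15, adjusted p = 1.88e-27). UGT87A2 (AT2G30140), a UDP-glycosyltransferase gene, rose from 113 ± 20.6 to 1054 ± 129, with a log2 change of 3.10 (adjusted p = 5.34e-30). In each of these genes the lowest stage 15 array lay above the highest stage 12 array, which was a condition for entering the ranking.

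The other genes among the 15 largest increases are known here by locus only. AT4G16260 went from 23.1 ± 5.25 to 518 ± 47.0, AT1G68620 from 68.6 ± 6.56 to 1188 ± 106 and AT4G00700 from 44.1 ± 5.31 to 685 ± 17.4. AT1G62760 and AT3G61930 were below the floor at stage 12 and reached 312 ± 21.4 and 269 ± 19.5, at least 13.8-fold and 11.9-fold higher. AT5G45650 was also below the floor before opening and reached 262 ± 20.5, at least 11.5-fold higher. Log2 changes of the remaining 5 were 3.65 for AT2G37750, 3.62 for AT2G44240, 3.43 for AT1G74010, 3.20 for AT5G38710 and 3.07 for AT3G13950. Stage 15 sepals held the highest mean of 13 wild-type flower, organ and pedicel groups for 12 of these 15 genes. The genes were picked for their rise in these same sepal arrays, which favours such a rank.

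Among decreases the largest was that of AT2G20870. Signals of 1025, 1053 and 968 at stage 12 were followed by 12.1, 16.0 and 13.9 at stage 15, below the floor and at least 44.9-fold lower (log2 change -5.34, SE 0.10, adjusted p = 1.15e-44). EXPA8 (AT2G40610) encodes an expansin, a protein that loosens the cell wall during growth. It fell from 577, 529 and 523 to 25.5, 28.6 and 25.6, with a log2 change of -3.87 (SE 0.07, adjusted p = 3.56e-45). DRT100 (AT3G12610), named for DNA damage repair and tolerance, fell from 549 ± 30.2 to 33.3 ± 6.92 (log2 change -3.66). All 3 stage 15 arrays of these genes lay below every stage 12 array, again by the rule of the ranking.

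A further 12 loci complete the 15 largest decreases. AT2G10940 fell from 1215 ± 163 to 59.4 ± 3.29, AT5G44680 from 608 ± 13.1 to 32.9 ± 2.85 and AT2G05790 from 477 ± 29.7 to 22.4 ± 5.58. Below the floor at stage 15 were AT2G43550, at least 17.6-fold lower, AT5G22430, at least 14.2-fold, AT1G11850, at least 13.3-fold, and AT3G10720, at least 13.2-fold. AT1G04040 and AT5G12940 were below the floor as well, at least 7.25-fold and 6.96-fold lower. Log2 changes were -3.55 for AT1G02190, -3.53 for AT5G33370 and -3.53 for AT1G09750. Stage 12 sepals held the highest mean of the 13 wild-type groups for only 1 of the 15 genes, so most of them were brighter elsewhere in the flower, as EXPA8 was in stage 12 petals at 1565 ± 30.1.

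**Figure D2:**
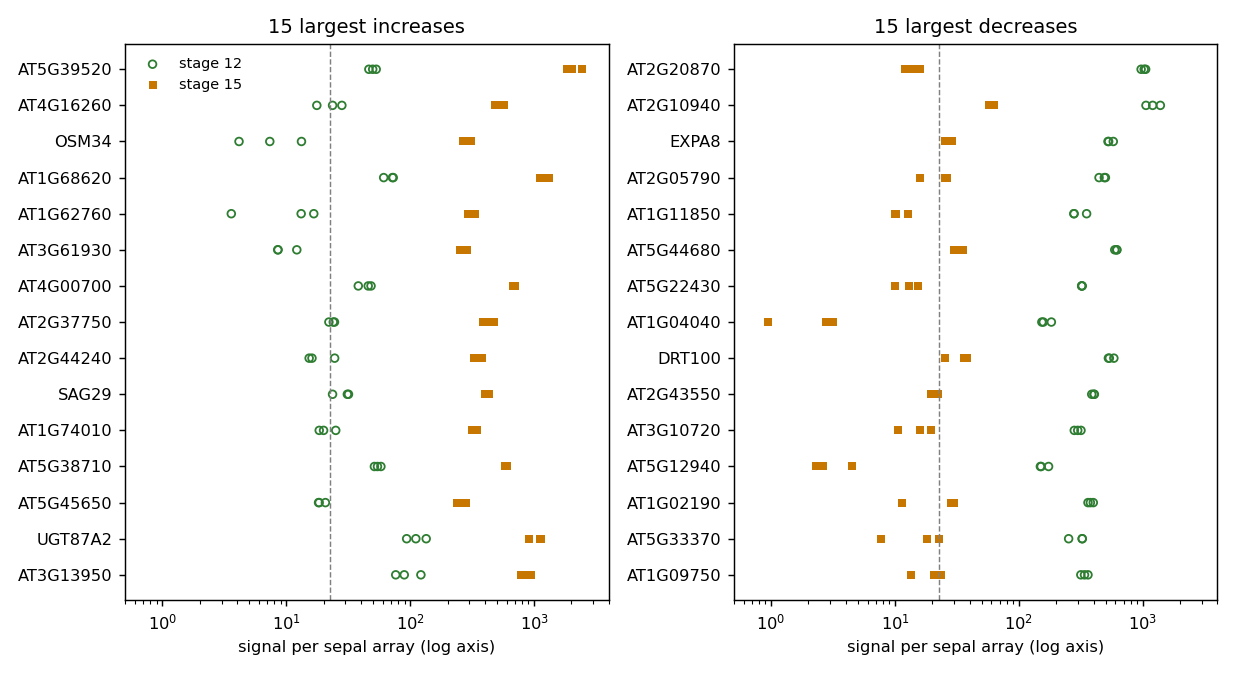
Signal of each sepal array on a log axis for the 15 largest increases (left) and the 15 largest decreases (right) among named genes, with open circles for the 3 stage 12 arrays, squares for the 3 stage 15 arrays and a dashed line at the floor of 22.6. Circles and squares do not overlap for any gene shown, because only such genes were ranked.

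Regulators and markers of ageing rose in part. Of 18 listed senescence regulators 4 were tested, of which 2 rose and 0 fell (median log2 change 1.10, against -0.03 over all tested probe sets). WRKY6 (AT1G62300), a transcription factor gene induced in ageing leaves, was 39.5, 35.6 and 47.5 at stage 12 and 293, 301 and 317 at stage 15. The change was 2.60 on the log2 scale (SE 0.18, adjusted p = 6.13e-19). WRKY53 (AT4G23810), a factor that promotes leaf senescence, rose from 66.0, 79.6 and 72.3 to 245, 229.7 and 228, with a log2 change of 1.55 (adjusted p = 5.17e-12). EIN3, the transcription factor of ethylene signalling, changed by 0.66 and WRKY22 by -0.36, and neither was called. Of 71 listed WRKY genes 7 were tested, of which 3 rose and 0 fell. The third was WRKY47, at 12.8 ± 2.14 and then 38.5 ± 7.55 (log2 change 1.04).

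Senescence-associated genes followed the same split, with 2 called higher of 3 tested and 20 listed. Beside SAG29, the gene YLS5 (AT2G38860), found through yellowing leaves, rose from 79.7, 88.8 and 93.7 to 262, 281 and 262 (log2 change 1.50, SE 0.12, adjusted p = 3.61e-16). SAG101, a lipase-like gene of leaf ageing and immunity, was at 27.1 ± 2.91 and 57.9 ± 11.6, a log2 change of 0.84 that did not reach 2-fold.

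Of 40 listed autophagy genes 11 were tested, of which 4 rose and 0 fell (median log2 change 0.87). Log2 changes of the 11 ranged from 0.45 to 1.74, and 7 did not reach 2-fold. All 4 that rose encode ATG8, the ubiquitin-like protein that is coupled to the membrane of the growing autophagosome. ATG8H (AT3G06420) stood at 124, 148 and 148 in stage 12 and 428, 515 and 542 in stage 15 sepals (log2 change 1.74, SE 0.11, adjusted p = 4.85e-20). ATG8E rose from 115 ± 3.79 to 356 ± 43.5, APG8A from 269 ± 20.1 to 797 ± 70.1 and ATG8G from 51.3 ± 5.04 to 117 ± 10.8. ATG8G lay near the limit at 1.03, and ATG3, an enzyme of ATG8 coupling, reached only 0.69.

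Among genes of nitrogen and carbon remobilization, 2 of 3 rose. PPDK (AT4G15530), pyruvate orthophosphate dikinase, which supports the export of nitrogen from ageing leaves, rose from 905, 826 and 764 to 1706, 1779.7 and 1965 (log2 change 1.12, adjusted p = 6.83e-16). IVD (AT3G45300), isovaleryl-CoA dehydrogenase of branched-chain amino acid breakdown, rose from 169.9 ± 4.28 to 427 ± 34.6 (log2 change 1.27). The vacuolar processing protease gene GAMMA-VPE (AT4G32940) rose from 853, 721 and 776 to 2075, 2180.3 and 2442 (log2 change 1.50, adjusted p = 4.3e-20), whereas its relative BETA-VPE was at 101 ± 2.63 and 147 ± 6.94 and was not called.

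Protease families, in lists put together after values had been seen, moved in both directions. Of 6 subtilases, secreted serine proteases, 2 rose and 2 fell, with SBT3.5 going from 69.3 ± 3.46 to 492 ± 14.6 and SBT1.3 from 297 ± 16.1 to below the floor, at least 13.1-fold. Of 23 serine carboxypeptidase-like genes 2 rose and 7 fell (median -0.36), with scpl48 rising from 449 ± 8.70 to 1787 ± 188 and scpl25 falling from 132 ± 5.90 to 21.9 ± 3.90.

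Genes of chlorophyll synthesis fell nearly throughout. Of 24 listed genes, 8 had a tested named probe set, and 7 of these fell and 0 rose (median log2 change -1.67). PORB (AT4G27440), the light-dependent protochlorophyllide reductase, fell from 338, 375 and 399.9 to 41.3, 41.5 and 46.1. The stages did not overlap, and the log2 change was -2.81 (SE 0.11, adjusted p = 2.21e-30). CHLM (AT4G25080), magnesium protoporphyrin methyltransferase, fell from 741, 694 and 788 to 110.2, 135 and 124 (log2 change -2.49, SE 0.07, adjusted p = 3.84e-38). CHLI2, a subunit of the magnesium chelatase, fell from 150.4 ± 2.58 to 24.2 ± 7.58 and LIL3:1, a light-harvesting-like protein that aids the late steps, from 462 ± 36.9 to 121 ± 3.30. Earlier steps of the pathway had smaller log2 changes: GSA1, glutamate semialdehyde aminotransferase, changed by -1.16, the uroporphyrinogen decarboxylase genes HEME1 and HEME2 by -1.43 and -1.50, and HEMB1, which makes porphobilinogen, by -0.91 without being called. Of the chlorophyll breakdown list only NOL, a chlorophyll b reductase, was tested, and at 240.4 ± 1.50 and 222 ± 18.1 it was not called.

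Nuclear genes of the photosystems and their antennae fell in 5 of 7 cases, with 0 higher (median -1.36). LHCB4.2 (AT3G08940), a minor antenna protein of photosystem II, fell from 1393, 1366 and 1300.2 to 334, 336 and 351 (log2 change -1.96, SE 0.06, adjusted p = 1.74e-35). Its relatives LHCB4.1 and LHCB4.3 changed by -1.03 and -1.41, PSAN of photosystem I by -1.41 and PSBY of photosystem II by -1.36. PSAE-1 and PSBW were also lower, by -0.96 and -0.72, short of 2-fold. In the Calvin cycle, PRK (AT1G32060), phosphoribulokinase, fell from 2662 ± 160.1 to 997 ± 58.5 and SBPASE (AT3G55800), sedoheptulose bisphosphatase, from 2253 ± 122 to 1028 ± 80.8. RCA, which activates Rubisco, was at 3732, 3523 and 3125 before opening and 2333, 3062 and 3404 after, so its groups overlapped and it was not called.

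Helpers of photosynthesis moved likewise. A list of subunits of the chloroplast NADH dehydrogenase-like complex and of photosystem assembly factors, made after values had been seen, held 16 tested genes, of which 11 fell and 0 rose (median -1.22). PSB27 (AT1G03600), an assembly protein of photosystem II, fell from 1543, 1566 and 1644 to 368, 358 and 338 (log2 change -2.13, adjusted p = 9.54e-33). The complex subunits NdhL and NdhN changed by -1.89 and -1.85, while NdhS stayed at 457 ± 6.84 and 443 ± 81.4 and was not called.

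Of 69 chloroplast-encoded genes tested, in a list made after values had been seen, 6 fell (8.70%, against 9.91% of all probe sets) and 0 rose, with a median of -0.27. All 6 encode ribosomal proteins: rpl22, rpl36, rps3, rps2, rps19 and rpl14. Other chloroplast ribosomal protein genes were not called, such as rpl20, at 377 ± 20.3 and 295 ± 12.8, and rps14, at 122 ± 25.1 and 150 ± 36.7. The gene rpoC2, which is not of this class, went from 316 ± 40.6 to 153 ± 5.87, just short of a call. The largest change among them was that of rpl22, from 1078 ± 64.2 to 349 ± 24.0 (log2 change -1.60).

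**Figure D3:**
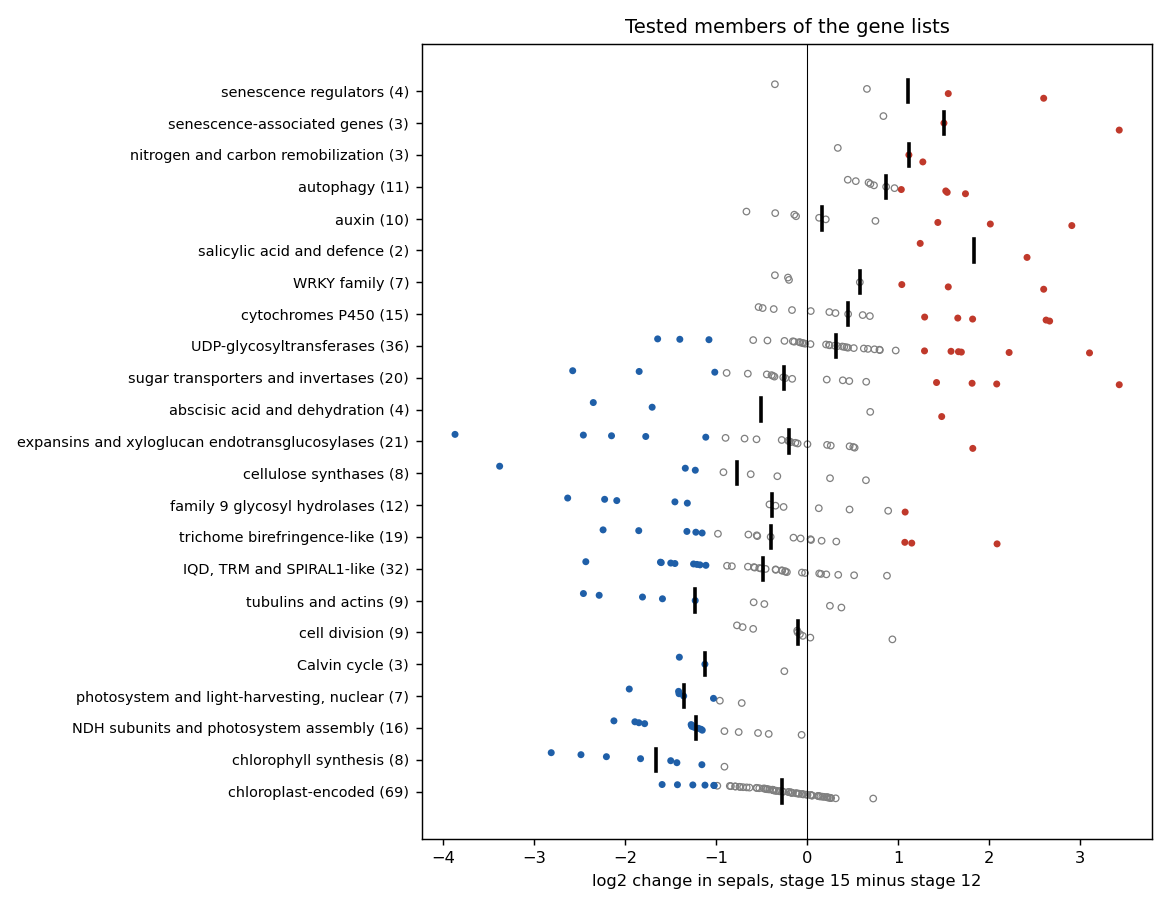
Log2 change in sepals, stage 15 minus stage 12, of every tested member of 23 gene lists, with filled points for called genes (red higher, blue lower), open points for genes not called, a black bar at the list median and the number tested in brackets. The medians of chlorophyll synthesis (-1.67) and of the senescence lists (1.10 and 1.50) lie on opposite sides of 0.

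Among wall-loosening genes, decreases outnumbered increases. Of 21 tested expansin and xyloglucan endotransglucosylase genes, which loosen or remodel the wall, 5 fell and 1 rose, and the median was -0.20. Beside EXPA8, EXLA2 (AT4G38400) fell from 54.4, 73.0 and 55.1 to 1.33, 2.68 and 1.15, at least 2.66-fold, and EXPB3 (AT4G28250) from 93.7 ± 3.87 to below the floor, at least 4.14-fold. XTH16 and EXPA15 changed by -1.78 and -1.12. XTH29 (AT4G18990) went the other way, from below the floor to 70.4, 62.5 and 63.8, at least 2.90-fold higher.

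In the cellulose synthase superfamily 3 of 8 genes fell and 0 rose (median -0.77). CSLA01 (AT4G16590), of a family that makes mannans, fell from 375, 432 and 411 to 27.2, 23.9 and 35.8 (log2 change -3.38, SE 0.12, adjusted p = 2.94e-31). CSLA03 and ATCSLC08, the latter of a family that makes the xyloglucan backbone, changed by -1.34 and -1.23. Lists of family 9 glycosyl hydrolases, the plant endoglucanases, and of trichome birefringence-like genes, which add acetyl groups to wall polysaccharides, were put together after values had been seen. In the first 5 of 12 fell and 1 rose, led by GH9B7 with 208 ± 4.68 and then 24.1 ± 0.299, and GH9C2 fell from 236 ± 15.2 to 41.5 ± 4.04. In the second 5 of 19 fell and 3 rose, and its extremes were TBL26, from 537 ± 15.7 to 104 ± 2.97, and TBL38, from 73.7 ± 4.89 up to 350.1 ± 27.2.

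Genes of the cytoskeleton were listed after values had been seen. Of 9 tubulin and actin genes 5 fell and 0 rose (median -1.23). TUB5 (AT1G20010), a beta-tubulin, fell from 275, 245 and 285 to 38.8, 51.5 and 48.0 (log2 change -2.29, SE 0.10, adjusted p = 3.36e-28). ACT11, an actin of reproductive organs, fell from 177 ± 13.5 to 23.7 ± 9.75, and the alpha-tubulin TUA6 from 575 ± 12.0 to 239 ± 8.72. TUA1, an alpha-tubulin known from pollen, was at 188 ± 1.47 and 248 ± 20.4 and was not called. IQD, TRM and SPIRAL1-like genes, whose proteins bind or order microtubules, fell in 9 of 32 cases, with 0 higher. Examples were IQD19, from 81.8 ± 8.36 to below the floor, at least 3.60-fold, and TRM20, from 171 ± 8.60 to 48.7 ± 2.50.

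Of 89 listed cell division genes 9 were tested. By limma with the 2-fold limit 0 of these were called, with a median of -0.11 and 4 at an unadjusted p below 0.05. The mitotic kinase genes AUR1 and AUR2 were at 42.9 ± 5.28 and 18.1 ± 3.84, and at 41.0 ± 1.04 and 16.0 ± 3.83 at stage 15.

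Genes of the sepal surface fell where called. STOMAGEN (AT4G12970), a secreted peptide from inner leaf tissue that promotes stomata, went from 74.5, 80.6 and 67.7 to below the floor, at least 3.27-fold lower (log2 change -2.57, adjusted p = 3.01e-25). CR4, a receptor kinase of the epidermis, was called at 18.2, 26.1 and 23.7 and then 1.36, 0.729 and 0.636, but its stage 12 arrays lie near the floor. FMA, a factor of guard cell differentiation, was at 124 ± 17.0 and 76.8 ± 3.33 and was not called. The cuticle regulator gene SHN3 (AT5G25390) fell from 65.7, 74.9 and 66.6 to below the floor, at least 3.05-fold, and WSD1, a wax ester synthase, stayed below the floor.

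Hormone genes moved gene by gene. Among 10 tested auxin genes 3 rose and 0 fell (median 0.17), and all 3 belong to the GH3 family, whose enzymes couple auxin to amino acids. GH3.17 (AT1G28130) rose from 21.9, 19.3 and 23.4 to 263, 221 and 224 (log2 change 2.91, SE 0.13, adjusted p = 5.95e-28). WES1, also named GH3.5, rose from 50.8 ± 3.85 to 239.6 ± 14.8 and GH3.3 from 44.8 ± 0.595 to 141 ± 10.4. The fourth GH3 gene tested, GH3.9, changed by -0.35 and was not called.

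Of the 3 gibberellin receptor genes, GID1B (AT3G63010) rose from 26.9, 26.9 and 23.3 to 195, 187 and 180.2 (log2 change 2.43, adjusted p = 2e-25). GID1A changed by -0.71 and GID1C by 0.48, neither called. RR16 (AT2G40670), a type-A response regulator of cytokinin signalling, rose from 59.2, 36.7 and 64.0 to 273, 243 and 342, while ARR15 of the same family was at 14.8 ± 1.34 and 8.70 ± 4.21.

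Jasmonate and cold or dehydration genes were split. THI2.1 (AT1G72260), an antimicrobial thionin induced by jasmonate, fell from 402, 296 and 365 to 29.3, 29.8 and 37.8 (log2 change -3.06, SE 0.09, adjusted p = 1.18e-35). JMT (AT1G19640), which methylates jasmonic acid, rose from 62.4, 61.6 and 62.4 to 207, 174 and 214 (log2 change 1.51). JMT is also one of the 2 nectary markers. COR15A and COR15B, chloroplast proteins of cold acclimation, fell from 3039.9 ± 405 to 924 ± 123 and from 648 ± 80.8 to 118 ± 12.6. COR47 (AT1G20440), a dehydrin, rose from 735, 826 and 814 to 1967, 2386 and 2344 (log2 change 1.48, adjusted p = 3.49e-19), and LTI30, another dehydrin, changed by 0.69 without being called.

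Of 27 listed salicylic acid and defence genes only 2 were tested, and both rose. CHI (AT2G43570), a chitinase, rose from 243, 286 and 275 to 1405, 1449 and 1580.2 (log2 change 2.42, SE 0.16, adjusted p = 4.22e-20). GRX480, a glutaredoxin induced by salicylic acid, rose from 175 ± 23.5 to 428 ± 11.4 (log2 change 1.24, SE 0.20).

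Cytochrome P450 and UDP-glycosyltransferase genes gave more increases than decreases, whereas 6.94% of all tested probe sets rose and 9.91% fell. Of 240 listed cytochrome P450 genes 15 were tested, of which 5 rose and 0 fell (median 0.45). Among the 5 that rose, 4 belong to the CYP71B subfamily. CYP71B23 rose from 64.2 ± 11.2 to 465 ± 42.4, and CYP71B31 from 3.40, 0.219 and 2.29, below the floor, to 78.1, 74.2 and 59.7, at least 3.10-fold. Of 36 UDP-glycosyltransferase genes, which attach sugars to small molecules, 6 rose (16.7%) and 3 fell (8.33%, near the share over all probe sets), with a median of 0.32. After UGT87A2 the largest increase was that of UF3GT (AT5G54060), an anthocyanin-modifying enzyme, from below the floor to 102 ± 5.87, at least 4.51-fold. UGT71B6 also started below the floor and reached 61.9 ± 8.35.

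Flavonoid genes did not move as 1 group. DFR (AT5G42800), dihydroflavonol reductase on the way to anthocyanin, rose from 13.4, 14.2 and 15.1, below the floor, to 81.4, 78.0 and 77.0, at least 3.48-fold. CHIL, a chalcone isomerase-like helper of the first steps, fell from 104, 123 and 106 to 5.60, 27.2 and 4.89, with 1 stage 15 array above the floor. UGT78D1, a flavonol glycosyltransferase, fell from 44.2 ± 3.50 to 6.50 ± 1.91. In the glucosinolate list, BCAT4 (AT3G19710), which starts the chain elongation of methionine, rose from 69.5, 80.3 and 86.0 to 301, 306 and 297 (log2 change 1.80, adjusted p = 7.25e-18), and AOP3 rose from below the floor to only 23.9 ± 5.44.

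Sugar transporters and invertases gave 4 increases and 3 decreases among 20 tested genes (median -0.25). Beside SAG29, the vacuolar sugar transporter gene SWEET2 rose from 57.9 ± 3.65 to 174 ± 9.32 and cwINV6 (AT5G11920), of the cell wall invertase family, from 20.2, 21.5 and 18.5 to 129, 113 and 123, at least 5.38-fold. SWEET9 (AT2G39060), the sucrose exporter of nectaries, rose from 11.9, 7.35 and 9.45 to 63.6, 67.3 and 55.0, while whole flowers of stage 15 stood at 838 ± 37.8; the share of nectary tissue in the sepal samples was not tested. SWEET17 (AT4G15920), a fructose transporter of the vacuole, fell from 232, 241 and 197 to 27.2, 24.0 and 32.8 (log2 change -2.58, SE 0.12, adjusted p = 3.92e-27). SWEET10 changed by -1.02, just past the limit, and AtVEX1, also named SWEET5, fell from 74.2 ± 18.5 to below the floor, at least 3.21-fold. For starch, AMY1 (AT4G25000), an alpha-amylase, rose from 119, 111 and 96.8 to 768, 697 and 793 (log2 change 2.67, adjusted p = 2.52e-22), and DPE1, a plastid enzyme of maltotriose use, fell from 98.2 ± 3.15 to 37.0 ± 5.40.

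AtVEX1 is also 1 of the 8 pollen markers, and 3 of these were called. PLIM2a, an actin-bundling protein of pollen, rose from 45.1 ± 1.95 to 114 ± 6.38, and AT59, a pectate lyase of pollen, from 24.1 ± 2.42 to 70.8 ± 3.45. The only carpel marker called was GILT, which fell from 84.4 ± 7.76 to below the floor, at least 3.72-fold. The part of pollen or carpel RNA in these changes was not tested.

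Several calls named here lie close to the 2-fold limit. With a pseudocount equal to the floor, those of WRKY47, ATG8G, EXPA15, CSLA03, ATCSLC08, AOP3, SWEET10 and CR4 were lost. Quantile normalization ended those of ATG8G, LHCB4.1, EXPA15, SWEET10 and DPE1. Those of WRKY47, ATG8G, AOP3 and SWEET10 were also lost when certain single sepal arrays were left out.

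The same interval was then compared between organs. In petals 2044 probe sets rose (11.6%) and 2413 fell (13.7%), in stamens 2125 rose (12.0%) and 2116 fell (12.0%), and in carpels 588 rose (3.33%) and 214 fell (1.21%). Of the 1225 probe sets that rose in sepals, 674 also rose in petals, which is 55.0% of the sepal list and 33.0% of the petal list. For decreases the count was 931, or 53.3% of the sepal list and 38.6% of the petal list. Stamens shared 463 increases (37.8% of the sepal list, 21.8% of the stamen list) and 439 decreases (25.1% and 20.7%). Carpels shared 160 increases (13.1% and 27.2%) and 68 decreases (3.89% and 31.8%). Opposite calls were made for 9 of the sepal increases and 71 of the sepal decreases in petals, for 71 and 267 in stamens and for 8 and 58 in carpels. In all 4 organs 68 probe sets rose and 34 fell.

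The difference between sepal and petal changes was tested directly. It was called higher for 1310 probe sets (7.42%) and lower for 1831 (10.4%). Towards lower, AT1G29670 led the named genes called in sepals. Its signal fell in sepals from 1033, 1057 and 1048 to 176, 170.2 and 167, while in petals the mean went from 34.1 ± 2.05 to 803 ± 129.5. The difference of changes was -6.69 on the log2 scale (SE 0.12, adjusted p = 6.23e-46). AT5G44020 likewise fell in sepals and rose in petals, with log2 changes of -3.22 and 2.09. Towards higher, the fitted difference was 4.29 for AT5G55720, which fell from 29.5 ± 3.56, near the floor, in sepals and from 1400.0 ± 34.9 in petals. Both organs ended below the floor, so the fitted value is no bound and its rank is uncertain. RXF26 (AT1G58430) also ended below the floor in both, from 81.0 ± 8.53 in sepals and 1330.5 ± 33.1 in petals. OSM34 rose by 3.94 in sepals against 0.48 in petals, where it stayed below the floor (adjusted p of the difference = 2.24e-18).

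Several ageing and remobilization genes rose more in petals than in sepals. PPDK rose by 1.12 in sepals and 4.71 in petals (difference -3.60, adjusted p = 7.01e-31), and GAMMA-VPE by 1.50 and 4.09 (difference -2.59). Of the 11 autophagy genes 9 were called higher in petals and 4 in sepals, where 11.6% and 6.94% of all probe sets were. The difference itself was called lower for 2 of the 11, beside 10.4% of all probe sets. SAG29 also rose more in petals, by 4.44, with a difference of -1.01 that lies close to the 2-fold limit and was lost without a pseudocount. The call also depended on single arrays. It was lost, for example, without stage 12 sepal array C (-0.956) or without stage 12 petal array A (-0.958). YLS5 went the other way, at 1.50 in sepals and -0.56 in petals (difference 2.07, adjusted p = 2.06e-15). CHI rose by 2.42 in sepals and 1.23 in petals, where it remained dim, at 29.2 ± 1.02. Without a pseudocount the CHI difference was 0.0987 and no longer called.

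Of 8 chlorophyll synthesis genes, 7 fell in sepals, 5 in petals and 0 in stamens or carpels (medians -1.67, -1.14, 0.00 and 0.46). Of 7 photosystem genes, 5 fell in sepals and 1 in petals, whereas 2 rose in stamens and 1 in carpels. The difference was called lower for 3 of 8 chlorophyll synthesis genes against petals, 7 of 8 against stamens and 8 of 8 against carpels. For the 7 photosystem genes these counts were 3, 7 and 7, and for the 16 helpers of photosynthesis 5, 12 and 12. No member of these 3 lists was called higher in any of the contrasts. The 69 chloroplast-encoded genes did not share this against petals, where 8 were higher and 1 lower, beside 7.42% and 10.4% of all probe sets. In petals 11 of the 69 fell, and 13.7% of all probe sets did. Against stamens 47 were lower and 0 higher, and against carpels 23 lower and 2 higher. The background shares called lower are 10.4% against petals, 15.7% against stamens and 12.3% against carpels. PORB in carpels went from 520.4 ± 21.6 to 916 ± 3.07 while it fell in sepals (difference from carpels -3.62, SE 0.15, adjusted p = 4.27e-28). PSAN rose by 1.99 in stamens and fell in sepals, a difference of -3.40. LHCB4.2 stood at 1353 ± 47.7 in stage 12 sepals, against 661 ± 24.7 in petals, 114 ± 9.64 in stamens and 596 ± 10.4 in carpels. By stage 15 sepals, at 340.1 ± 9.45, were near petals, at 375 ± 17.9, and carpels had the highest mean, at 1315 ± 44.3.

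**Figure D4:**
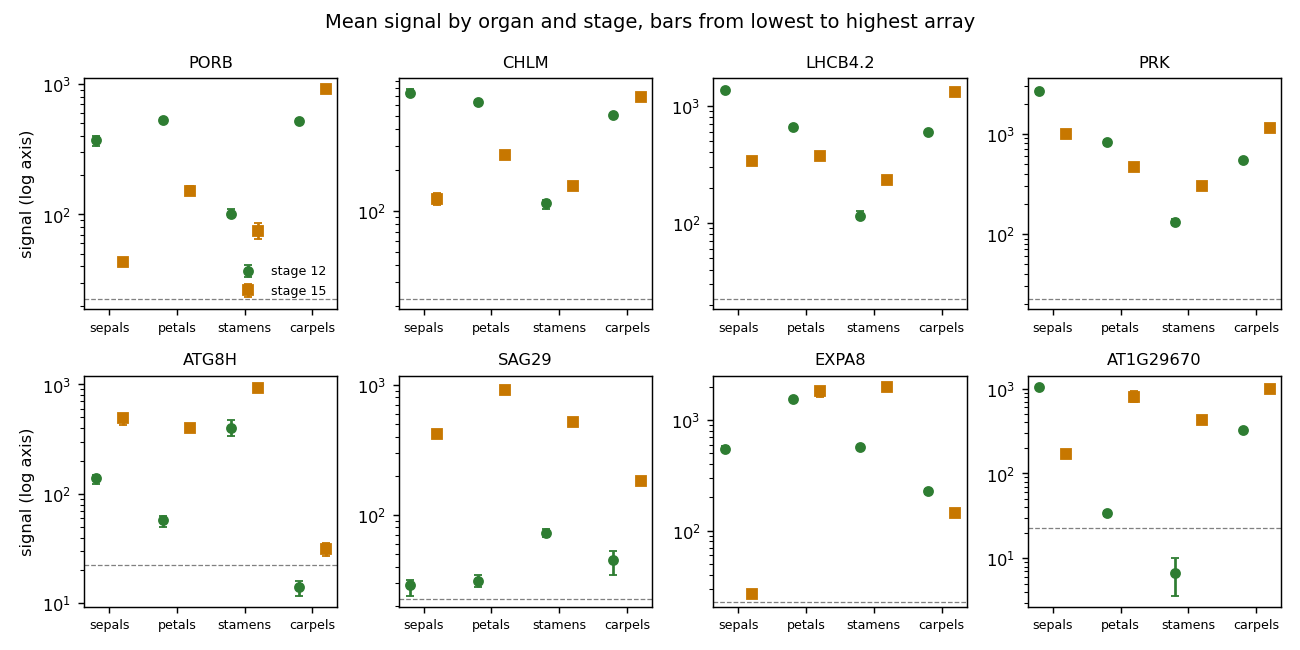
Mean signal on a log axis of 8 genes in sepals, petals, stamens and carpels at stage 12 (circles) and stage 15 (squares), with bars from the lowest to the highest of 3 arrays and a dashed line at the floor of 22.6. PORB, CHLM, LHCB4.2 and PRK fall in sepals and are higher at stage 15 than at stage 12 in carpels, and EXPA8 falls to 26.6 in sepals while it rises in stamens.

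Against stamens the difference was called higher for 2157 probe sets (12.2%) and lower for 2767 (15.7%). The extremes among named genes called in sepals were AT1G29670, with a difference of -7.17, and AT2G37750, with 5.71. AT2G37750 rose in sepals from 22.1, 23.9 and 24.5 to 475, 421 and 386 and fell in stamens from 332 ± 34.0 to 71.4 ± 14.4. EXPA8 had a difference of -5.65 (adjusted p = 3.29e-46), as it rose in stamens from 567 ± 4.27 to 1974 ± 29.7. OCT1 (AT1G73220), an organic cation and carnitine transporter gene, rose in sepals from below the floor to 84.3 ± 9.49, at least 3.71-fold, and fell in stamens, where the log2 change was -3.42. BCAT4 also moved in opposite directions, with 1.80 in sepals and -2.31 in stamens.

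Carpels, which continue to grow into the fruit, gave 1189 probe sets called higher (6.74%) and 2177 called lower (12.3%). AT1G60590 fell in sepals from 113, 113 and 109.9 to below the floor, at least 4.95-fold, and rose in carpels, a difference of -4.59 (adjusted p = 4.09e-30). AT5G39520 was at 9.25 ± 1.78 and 14.1 ± 2.27 in carpels, below the floor, so that its sepal increase gave a difference of 4.79. AT2G10940 changed by 0.03 in carpels against -4.11 in sepals.

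The sepal change was called higher against all 3 other organs for 225 probe sets, 18.4% of the sepal increases, and lower for 455, 26.0% of the sepal decreases. Among named genes these were 99 and 219. On the higher side OSM34 led, with AT2G44240, which was 355 ± 27.0 in stage 15 sepals and below the floor in both stages of the other 3 organs. cwINV6 rose by 2.08 in sepals and changed by 0.07, 0.10 and -0.14 in petals, stamens and carpels. CYP71B24, BCAT4, CHI and YLS5 belong to the same group. On the lower side were EXPA8, DRT100, CSLA01, THI2.1, PORB, CHLM, SWEET17 and TUB5. The PORB difference from petals was no longer called with a pseudocount equal to the floor (-0.9063) or under quantile normalization (-0.7919). SWEET17 illustrates the form, with -2.58 in sepals, -0.08 in petals, 1.46 in stamens and 0.43 in carpels.

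**Figure D5:**
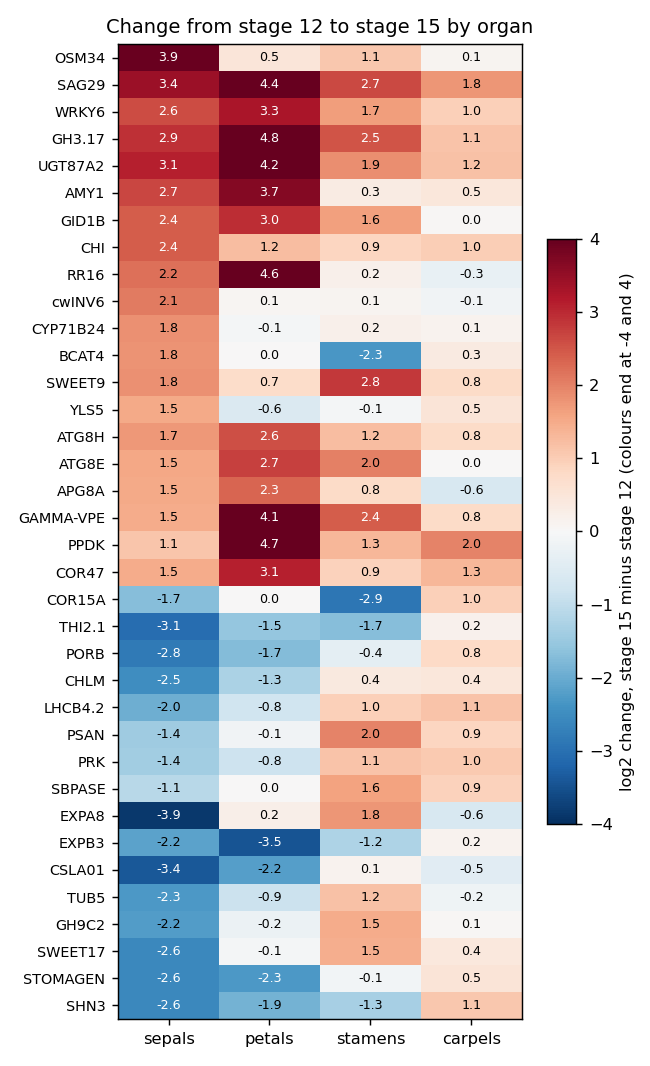
Log2 change from stage 12 to stage 15 of 36 genes named in the text (rows) in sepals, petals, stamens and carpels (columns), with the value written in each cell. OSM34, cwINV6, CYP71B24 and YLS5 have their largest change in sepals, PPDK and GAMMA-VPE in petals, and for PORB to SBPASE the change in sepals is the lowest of the 4 organs.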

How the data were processed

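The authors deposited 1 signal intensity per probe set and array, which the submitters' processing notes name as MAS5 values; its version is not given in the sources used here. All 66 ATH1 arrays, 3 per group, entered the fit. Controls (64 of 22810 probe sets) and 5100 probe sets that were not above the floor on every array of any group were left out, and 17646 were tested. The floor (22.6) was set at the 40th percentile over all arrays, and 0.5 of it (11.3) served as the pseudocount. limma 3.58.1 in R 4.3.3 fitted 1 mean per group to log2(signal + 11.3) with eBayes and an intensity trend (44 residual and 10.6 prior degrees of freedom), with Benjamini-Hochberg adjustment over all 17646 probe sets. The procedure was tested on simulated data. Hybridisation gives no read depth, so the 3 arrays per group limit the precision.

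A probe set was named only where the platform annotation pairs it with 1 gene (13513 probe sets, against 503 with several and 8730 with none). Many listed genes had no tested probe set named in this way. Only 10 of 167 listed auxin genes and 7 of 49 nuclear photosystem genes were tested, so list counts cover a part of each group. Symbols come from RefSeq's gene table for TAIR10.1, and 1370 of the 9810 named probe sets tested had one. For genes with more than 1 probe set the brightest is given. Of 95 such genes 7 had probe sets called differently and 0 in opposite directions.

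The text names genes from the 15 largest changes in each direction, up to 6 called members per list, the 6 largest differences from each organ in each direction, markers, and uncalled members given for contrast. A gene outside this rule is marked as chosen after its values were seen. Members and lists were chosen with earlier results of these data known. Alternatives were to drop the pseudocount or raise it to the floor, to drop the filter, quantile or 75th percentile scaling, only the groups compared, robust eBayes, the replicate letter as a block, and leaving out each array. Promoter and protein sequences were not analysed here, and 1 gene list is not reported here. Of the other lists 7 had no tested gene and 5 had 1, and most of these are not described.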

Additional observations from a re-analysis of the deposited data

Results flagged for a closer look

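The change from stage 12 to stage 15 was tested for a difference between sepals and each other organ, and these results are listed because the difference itself passed the test. Between sepals and petals 3141 probe sets differed by limma. The lowest and highest fitted differences were those of AT1G29670, which fell in sepals and rose in petals (difference -6.69 on the log2 scale), and AT5G55720, which fell in both (4.29). Between sepals and stamens 4924 probe sets differed, with AT1G29670 (-7.17), which rose in stamens, and AT2G37750 (5.71), which fell there. Between sepals and carpels 3366 differed, with AT1G60590 (-4.59), which rose in carpels, and AT5G39520 (4.79), which was below the floor in carpels at both stages. AT1G29670 stood at 6.78 ± 3.24 in stage 12 stamens, below the floor, and at 432 ± 1.45 at stage 15, so its fitted difference is no bound. For AT5G55720 both organs ended below the floor and stage 12 sepals lay near it, so its value and rank are uncertain in the same way. Groups of 3 arrays were too small for a test of single outlying arrays.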

How the results depend on the processing

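The count of sepal calls, 2973, moved between 2364 with a pseudocount equal to the floor and 4334 without one, and between 2983 and 3027 when each array was left out. Without a pseudocount the decreases numbered 2742 against 1748. Counts of differences from petals (2542 to 4093), stamens (4163 to 5933) and carpels (2660 to 4279) stayed within 1.5 times of their values in the report under every alternative listed. Quantile normalization shared 2672 of the 2973 sepal calls. With the replicate letter as a block the counts were 2973 for sepals and 3173, 4925 and 3366 for the differences from petals, stamens and carpels, and no gene named here changed its call. Same-letter deviations of the stages correlated at 0.07, -0.03 and 0.004, and those of different letters at -0.07 to 0.06. These values cannot decide whether equal letters mark samples that belong together, and samples were not paired in the main fit. Of the log2 differences of named genes under alternatives, 2941 kept direction and side of the threshold, 32 lost the call, 2 gained it and 3 changed sign. Those 3 belong to genes never called: NdhS, which ranged from -0.1744 to 0.0872 with 1 array left out, and AUR1, from -0.1278 to 0.0118 with 1 array left out and 0.0758 under quantile normalization. Of 190 list medians recomputed, 64 moved by more than the spread between arrays, 24 of them without a pseudocount, 22 with one equal to the floor and 15 under quantile normalization, and that of the carpel markers changed sign under the last (0.0113). SAG101 was called without a pseudocount and PSAE-1 without the third stage 15 array. Limits are that dim probe sets have only bounds, that only 9810 of the 17646 tested probe sets could be named, and that 10647 probe sets passed the adjusted p without the 2-fold limit. The cause of these movements was not tested.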

Other observations

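Further groups of genes were followed in sepals, with lists that were partly put together after values had been seen. Of 9 RALF-like genes, which encode small secreted signalling peptides, 2 rose and 2 fell. RALFL34 (AT5G67070) fell from 296, 284 and 363 at stage 12 to 32.8, 36.3 and 31.1 at stage 15 (log2 change -2.86, SE 0.16, adjusted p = 7.95e-23 by limma), and RALFL26 rose from 39.2 ± 4.52 to 151 ± 20.5. Of 8 aldehyde dehydrogenase genes 2 rose and 2 fell, with ALDH2C4 going from 126 ± 2.54 to 469 ± 44.5 and ALDH3F1 from 355 ± 10.0 to 119.6 ± 24.0. In the wound and touch list, EXO (AT4G08950), a gene that promotes cell expansion, fell from 743, 832 and 641 to 126, 135 and 130.2, CML41, a calmodulin-like gene, rose from 331 ± 32.7 to 1099 ± 77.6, and the zinc-finger gene STZ was at 599 ± 9.26 and 624 ± 41.8. Of 17 MADS-box genes AGL87 alone was called and fell, from 48.4 ± 2.30 to below the floor, at least 2.14-fold. Of 9 glutathione transferases GSTU20 alone was called and fell, from 268 ± 11.2 to 116 ± 10.9. Of 2 circadian clock genes and 2 ethylene genes 0 were called by limma with the 2-fold limit, and at an unadjusted p below 0.05 these were 0 and 2.

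Genes outside every list, chosen for a known role after their values were seen, add to the description. DELTA-OAT (AT5G46180), ornithine aminotransferase of arginine breakdown, rose in sepals from 291, 293 and 284 to 826, 780.0 and 818. FDH (AT5G14780), formate dehydrogenase, rose from 917 ± 66.2 to 2208 ± 215. BSMT1 (AT3G11480), which makes methyl benzoate and methyl salicylate, rose from 369.5, 375 and 385 to 1144, 1003 and 1105 (log2 change 1.50). Stage 12 and stage 15 arrays of these 3 genes did not overlap. The glutamate receptor-like genes GLR2.7 and ATGLR1.2 rose from 14.7 ± 3.21 to 74.0 ± 6.56 and from 34.2 ± 1.75 to 192 ± 12.0. SKU5 (AT4G12420), a wall-associated protein of directional growth, fell from 204, 212 and 188 to 16.9, 18.8 and 14.8, and COB, an anchored protein that orients cellulose, fell from 294 ± 39.6 to 121 ± 5.88. The receptor kinase gene THE1, which senses wall integrity, fell from 311 ± 33.9 to 95.3 ± 2.62, the trichome repressor TRY from 136 ± 15.1 to 52.2 ± 5.52, and FTSZ2-2, of the chloroplast division ring, from 195 ± 6.51 to 40.8 ± 0.453. CaS, a calcium sensor of the thylakoid, fell from 905 ± 37.2 to 161 ± 24.7.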
